A study of Mus musculus with 6 samples.

Results

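Annexins are proteins that bind the phospholipids of cell membranes when calcium is present. They share a conserved core of annexin repeats that does the binding, while their variable amino-terminal ends recruit partners, many of them small S100 calcium-binding proteins. They are known for work in membrane traffic, in the resealing of wounded plasma membranes, in linking membranes to the actin cytoskeleton and in limiting inflammation. The family is described here in mouse embryonic stem cells with and without Ddx5, an RNA helicase also called p68. Members were the rows of the deposited expression table whose symbol is Anxa followed by a number. They were 9 genes of 10989, namely Anxa1, Anxa2, Anxa3, Anxa4, Anxa5, Anxa6, Anxa7, Anxa8 and Anxa11. Each member was chosen by its name, but the family was taken up with earlier results of these data known, the knockout against wild-type difference included, so its values describe the family and are not independent support for that choice. The table itself is selected on level, since every row reaches 80 units in at least 2 libraries. Anxa3 met that level through the wild-type libraries alone, so a lower value in the knockout lines was built into its presence. The same holds for 116 of the 807 genes called lower in all, and it is said below of each such gene that is named.

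Both groups were MPI-II embryonic stem cells, grown on feeder cells with 15% fetal bovine serum, 1000 U/ml leukemia inhibitory factor, 1 μM of the MEK inhibitor PD0325901 and 3 μM of the GSK3 inhibitor CH99021. The wild-type (WT) group is 2 libraries with an intact Ddx5 gene, labelled as replicates. The knockout (KO) group is 4 libraries from separate DDX5-/- lines, each grown from a single clone after a Cas9 nickase with paired guide RNAs was aimed at the second exon and cells were selected with 500 μg/ml G418. G418 selection and growth from a single clone are given for the KO lines only. Neither can be told apart here from the loss of Ddx5. The labels do not say that the WT replicates were separate cultures, so each p-value rests on the spread among 6 libraries, which for WT may be technical.

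Values are normalized expression scores in the deposited units of the table, and their totals, 14612799 to 14722877 per library, result from normalization, so sequencing depth is unknown. Ddx5 itself stood at 36433 and 36436 units in WT, against 5659 to 12793 units over the 4 KO lines. Of 10 stem cell markers, 1 was higher in KO (Nanog, log2 0.89), 1 was lower (Klf4, -0.94) and 8 did not pass. Each call is 10% of the list, beside 9.75% of all genes higher and 7.34% lower. Among those 8, Pou5f1 lay between 13545 and 17548 units in all 6 libraries. Dppa5a, also among them, stood at 78894 units in WT replicate 1 and 17548 units in WT replicate 2. Markers of the fibroblasts used as feeders differed between the WT and KO groups. Of 15 measured fibroblast markers 13 were lower in KO (86.7%, against 7.34% of all genes) and none higher (against 9.75%). Their median log2 change was -2.63, against 0.04 for all genes. Of those 13, 4 met the 80-unit level through WT alone. The collagen gene Col1a2, which also met it in the KO lines, had a log2 change of -4.30, and the collagen genes Col6a1 (-5.06), Col6a2 (-4.57) and Col6a3 (-3.42) met it through WT alone. Summed, the 15 markers stood at 33813 and 17869 units in WT, against 2609 to 4185 units over the 4 KO lines, where Col6a3 was listed at 0 in line 4. No annexin is in that marker list, and the part of the feeder cells in the annexin values below was not tested. Fewer cells of a type and less RNA per cell cannot be told apart in such bulk samples. WT replicate 2 differed from the rest in its zeros, which numbered 131 genes, while each of the other libraries had 13 to 19.

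Lower annexin levels in the KO lines came from part of the family. Anxa5, Anxa3, Anxa1, Anxa2 and Anxa7 fell, none rose, and Anxa4, Anxa6, Anxa8 and Anxa11 did not pass the test. Among all 10989 genes, 7.34% were called lower and 9.75% higher. The 4 KO lines lay below both WT libraries for 5 annexins, as for 19.6% of all genes. The median log2 fold change of the 9 annexins was -0.55, and that of all genes was 0.04. Calls rest on limma fitted across all genes, with a Benjamini-Hochberg adjusted p below 0.05, on log2 of a scaled value (deposited units divided by 14.7) plus 1. No annexin was higher at an unadjusted p below 0.05 (limma), where 2241 of all 10989 genes were. With 9 genes, none cannot be told from that share. An exact permutation of 2 against 4 libraries cannot go below p = 0.0667.

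**Figure D1:**
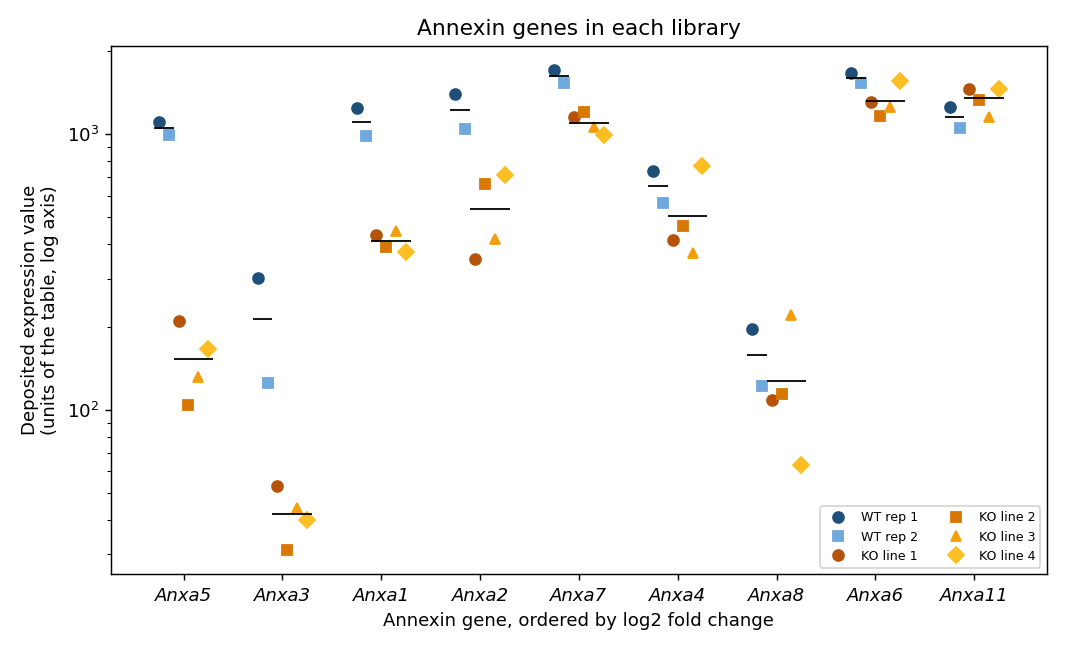
Deposited expression value (log axis) of each annexin gene in the 2 WT libraries (blue) and the 4 KO lines (orange), with short lines at the group means. For Anxa5, Anxa3, Anxa1, Anxa2 and Anxa7 the 4 KO lines lie below both WT libraries, and for the other 4 genes the groups overlap.

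Anxa5 had the largest change of the family. Annexin A5 binds phosphatidylserine and is widely used as a probe of dying cells, which expose that lipid. The gene (ENSMUSG00000027712, chromosome 3, 36448923 to 36475894, minus strand of mm10) reached 1111 and 995 units in WT, against 211, 104, 132 and 166 units for KO lines 1 to 4. The groups lay far apart, and line 1 was the highest of the KO lines. The mean went from 1053 ± 82.0 (SD, n = 2) to 153 ± 46.1 units (SD, n = 4), a level 6.87-fold higher in WT. On the log2 scale the fold change was -2.71, with an SE of 0.254 (adjusted p = 0.00326, limma), and it lay between -2.86 and -2.55 with any 1 library left out, past the threshold each time.

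Anxa1 encodes the annexin best known for damping inflammation, through formyl peptide receptors on leukocytes. The gene (ENSMUSG00000024659, chromosome 19, 20373428 to 20390944, minus strand) stood at 1244 and 985 units in WT, against 432, 390, 448 and 376 units for KO lines 1 to 4. The 4 KO lines were close together, with the highest only 1.19 times the lowest, and all lay well under WT replicate 2. The mean fell from 1114 ± 183 (SD, n = 2) to 412 ± 34.0 units (SD, n = 4). On the log2 scale the fold change was -1.40, with an SE of 0.138 (adjusted p = 0.00334, limma), called with each library left out in turn (-1.57 to -1.23). None of the 3 formyl peptide receptor genes sought (Fpr1, Fpr2 and Fpr3) was among the measured genes, so their levels are not known here.

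Anxa2 encodes the annexin that pairs with S100A10 at the plasma membrane, where the complex binds plasminogen activators and plasminogen. The gene (ENSMUSG00000032231, chromosome 9, 69453620 to 69491795, plus strand) stood at 1400 and 1046 units in WT, against 354, 660 and 710 units for KO lines 1, 2 and 4, with line 3 between lines 1 and 2. Lines 2 and 4 were high and lines 1 and 3 low, and the highest line was still below WT replicate 2. The mean went from 1223 ± 250 (SD, n = 2) to 536 ± 176 units (SD, n = 4), with a log2 fold change of -1.21 (SE 0.301, adjusted p = 0.037, limma). Of the 5 calls this was the one lost most often. It held only without KO line 4 (adjusted p = 0.0371), while leaving out any other single library gave an adjusted p of 0.0564 to 0.111 with a log2 fold change of -1.42 to -1.01.

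Anxa3, a less studied member that is abundant in granulocytes, had the lowest level per kb of the annexins that fell. The gene (ENSMUSG00000029484, chromosome 5, 96793339 to 96845966, plus strand) stood at 302 and 125 units in WT, against 53, 31, 44 and 40 units for KO lines 1 to 4. WT replicate 1 was far above WT replicate 2, and all 4 lines were below both. The mean went from 214 ± 125 (SD, n = 2) to 42 ± 9.13 units (SD, n = 4), with a log2 fold change of -1.91 (SE 0.379, adjusted p = 0.0198, limma). The estimate ran from -2.50 without WT replicate 2 to -1.32 without WT replicate 1. The call was lost without KO line 2 (adjusted p = 0.0638) or KO line 3 (adjusted p = 0.0606).

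Anxa7, or synexin, binds the calcium-binding protein sorcin and was first described as a factor that makes secretory granules aggregate. The gene (ENSMUSG00000021814, chromosome 14, 20455260 to 20480133, minus strand) stood at 1714 and 1538 units in WT, against 1154, 1204, 1065 and 992 units for KO lines 1 to 4. The change was small and even across the lines. The mean went from 1626 ± 124 (SD, n = 2) to 1104 ± 94.1 units (SD, n = 4), with a log2 fold change of -0.55 (SE 0.114, adjusted p = 0.0214, limma). The call was lost without KO line 2 (adjusted p = 0.0568) or KO line 3 (adjusted p = 0.0728).

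**Figure D2:**
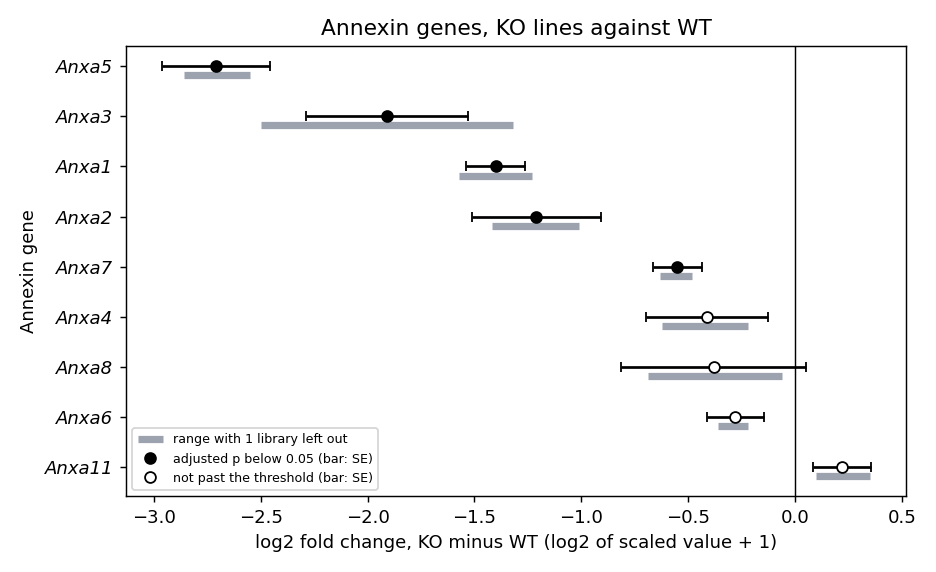
Log2 fold change of each annexin gene, KO minus WT, with its standard error as a black bar and the range of the estimate with 1 library left out as a grey bar. Filled points passed an adjusted p below 0.05. The estimates run from -2.71 for Anxa5 to 0.22 for Anxa11, and no grey bar crosses 0.

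The other 4 members did not separate the groups. Anxa6, an annexin with a duplicated core that acts in endosome traffic and cholesterol handling (ENSMUSG00000018340, chromosome 11, 54979108 to 55033445, minus strand), stood at 1674 and 1531 units in WT, against 1316, 1162, 1256 and 1564 units for KO lines 1 to 4. Line 4 lay between the WT libraries. The estimated log2 change was -0.28 (SE 0.133, adjusted p = 0.18, limma). Anxa11, which tethers RNA granules to lysosomes and binds S100A6 (ENSMUSG00000021866, chromosome 14, 25842156 to 25886804, plus strand), stood at 1260 and 1054 units in WT, against 1466, 1332, 1156 and 1461 units for KO lines 1 to 4. It was the 1 member with a positive estimate, a log2 fold change of 0.22 (SE 0.135, adjusted p = 0.279, limma), and line 3 lay between the WT libraries.

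Anxa4, known from secretory epithelia (ENSMUSG00000029994, minus strand), stood at 738 and 566 units in WT, against 414, 464, 372 and 768 units for KO lines 1 to 4. Lines 1 to 3 were below both WT libraries and line 4 was above both. Anxa4 lies on chromosome 6 (86736840 to 86793584), whose 518 genes as a whole stood higher in line 4, by a median log2 deviation of 0.42 from each gene's mean, against -0.16 to -0.04 in the other libraries. Over all lines the log2 estimate was -0.41 (SE 0.285, adjusted p = 0.346, limma), and -0.62 (adjusted p = 0.0624) without line 4. With the shift of each chromosome subtracted it was -0.58 (adjusted p = 0.0533).

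Anxa8, an annexin of stratified epithelia (ENSMUSG00000021950, chromosome 14, 34085981 to 34100571, plus strand), varied most among the KO lines. It stood at 196 and 122 units in WT, against 109, 114, 222 and 63 units for KO lines 1 to 4, so that line 3 was the highest of all 6 libraries and line 4 the lowest. Its standard deviation over the KO lines, 0.659 on the log2 scale, ranked at the 98.0 percentile of all genes. Anxa2 (0.478), Anxa4 (0.45) and Anxa5 (0.398) also ranked above 90% of genes, at the 95.1, 94.1 and 91.8 percentiles. Anxa1 (0.115) and Anxa7 (0.122) lay under the middle, at the 37.4 and 40.5 percentiles. Anxa8 had a log2 fold change of -0.38 (SE 0.432, adjusted p = 0.566, limma).

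The KO lines did not share 1 order across the annexins. Anxa5 and Anxa3 were highest in line 1 and lowest in line 2, whereas Anxa2 was lowest in line 1. Anxa1 and Anxa8 were highest in line 3 and lowest in line 4. The mean log2 level of the 15 fibroblast markers was 3.31, 2.93, 3.26 and 3.27 in lines 1 to 4, lowest in line 2. That of the 10 stem cell markers was 9.36, 9.25, 9.32 and 9.38, lowest in line 2 as well. Primitive endoderm markers (5.62, 5.63, 5.64 and 5.87) and trophoblast markers (3.93, 4.22, 4.48 and 4.77) were lowest in line 1. Between the WT libraries the direction was uniform. All 9 annexins were lower in WT replicate 2 than in WT replicate 1, at 41.4% of its value for Anxa3 and 91.5% for Anxa6, with a median of 79.2%. Of all genes 54% were lower in WT replicate 2, with a median of 97%. The 15 fibroblast markers were all lower there, with a median of 49.9%. Of 10 stem cell markers 8 were lower, with a median of 81.6%. All 3 measured primitive endoderm markers were lower (median 67.5%), and 0 of 4 trophoblast markers were (median 137%). The source of the difference between the WT libraries was not tested.

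To compare levels between genes, scaled values were divided by the length in kb of the longest annotated protein-coding transcript. Whether the deposited values already allow for length is not known. The order, sums and shares per kb given here and below assume that they do not. In deposited units the highest WT means were those of Anxa7 (1626) and Anxa6 (1602), with Anxa2 at 1223. On this scale Anxa2 led in WT at 57.5, followed by Anxa1 at 45.3, Anxa6 at 43.8, Anxa5 at 41.4 and Anxa7 at 38.1, and neighbours among these had overlapping WT values. Anxa11 at 32.9, Anxa4 at 21.8 and Anxa3 at 9.11 each stood below the gene before it with no overlap, and Anxa8 at 5.75 overlapped Anxa3. In KO the order began with Anxa11 at 38.5 and Anxa6 at 36.2, which overlapped each other and no other annexin except Anxa2. Anxa7 at 25.9, Anxa2 at 25.2, Anxa4 at 16.9 and Anxa1 at 16.7 followed, with overlapping neighbours. Anxa5 at 6.02, Anxa8 at 4.6 and Anxa3 at 1.79 came last.

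Summed over the 9 genes, the level per kb was 326 and 265 in WT and 167, 170, 158 and 192 in KO lines 1 to 4. The make-up of the sum differed as well. Anxa5 held 13.4% and 14.8% of it in WT and 2.41% to 4.96% in the KO lines. Anxa11 held 11% and 11.3% in WT and 20.9% to 24.9% in the KO lines. Anxa6 went from 14% and 15.8% to between 18.7% and 22.2%. Anxa1 went from 15.1% and 15.5% to between 7.94% and 11.6%. The share of Anxa2 in KO line 2, 18.3%, was close to the 18.6% of WT replicate 2, while in line 1 it was 9.95%. Shares of 1 sum depend on each other, and no test was run on them.

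**Figure D3:**
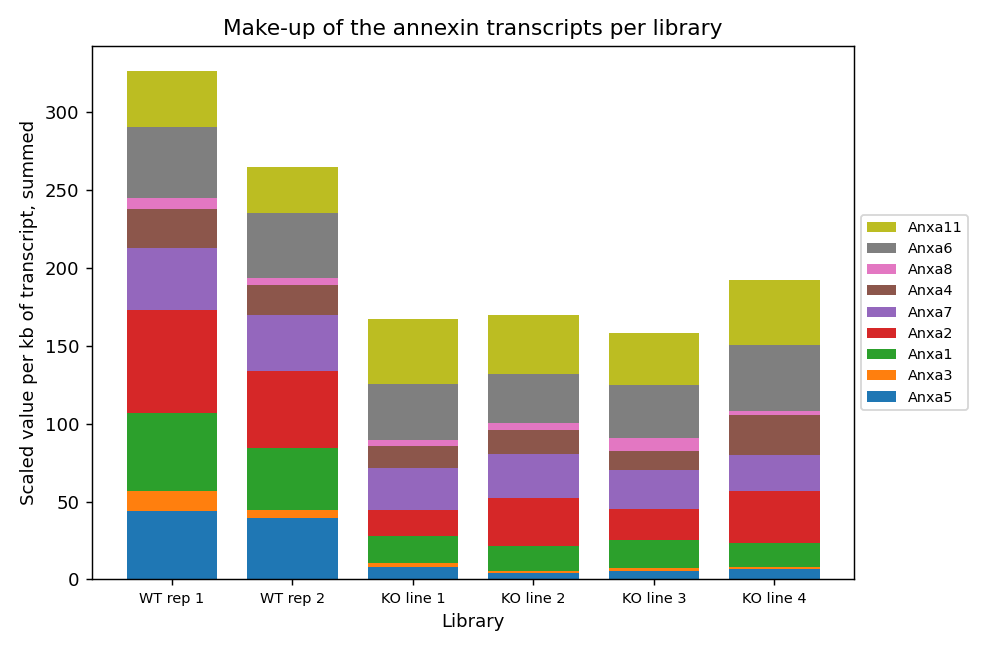
Scaled value per kb of transcript for the 9 annexin genes, stacked for each library. The sums are 326 and 265 in WT and 158 to 192 in the KO lines, where the Anxa5 segment at the bottom is thin and the Anxa11 segment at the top spans 32.8 to 41.7, beside 29.9 and 35.8 in WT.

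The sequences upstream of 3 members are shown for a gene that fell furthest (Anxa5), one that fell with a wide spread (Anxa2) and one that did not fall (Anxa11). They are from RefSeq, build GRCm38.p6 (mm10), on the strand of the gene, and each ends before the first annotated base of the gene in RefSeq and GENCODE. Of the 9 members, 7 had an entry. Anxa3 and Anxa6 had none. Capitals mark the AP-1 element TGANTCA and the GC box GGGCGG, which on the other strand reads CCGCCC.
Anxa5, chr3:36475895-36476137, minus strand: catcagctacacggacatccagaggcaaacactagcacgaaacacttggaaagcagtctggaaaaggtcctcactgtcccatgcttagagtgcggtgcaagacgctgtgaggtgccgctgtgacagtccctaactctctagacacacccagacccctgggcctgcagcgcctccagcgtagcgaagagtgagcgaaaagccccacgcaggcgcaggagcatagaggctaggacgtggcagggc
Anxa2, chr9:69453433-69453619, plus strand: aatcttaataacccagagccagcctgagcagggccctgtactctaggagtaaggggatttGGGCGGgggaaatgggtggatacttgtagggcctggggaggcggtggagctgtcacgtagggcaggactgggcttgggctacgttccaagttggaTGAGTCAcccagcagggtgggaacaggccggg
Anxa11, chr14:25841905-25842154, plus strand: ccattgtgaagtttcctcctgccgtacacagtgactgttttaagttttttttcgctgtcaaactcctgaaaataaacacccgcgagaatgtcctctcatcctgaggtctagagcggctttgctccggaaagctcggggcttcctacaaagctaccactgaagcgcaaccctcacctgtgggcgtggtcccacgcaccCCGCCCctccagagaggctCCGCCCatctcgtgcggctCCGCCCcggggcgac

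Motifs were searched on both strands in the 250 bases before the RefSeq start. The 4 elements searched were AP-1 (TGANTCA), TEAD (GGAATG), the GC box (GGGCGG) and, on the gene's strand only, TATAAA, with no overlap between them in the annexin windows. The Anxa2 window held AP-1 at position -95 and GC boxes at -190, -48 and -24, counted back from the start to the element's first base, and TATAAA at -17. The last 63 bases of that window, which hold the elements from -48 on, lie inside the GENCODE gene and are not shown. Anxa11 held GC boxes at -53, -34 and -15. Of the 2 windows of Anxa7, the one with the outer start held a GC box at -8 and the inner one held GC boxes at -200, -71, -57 and -28. The windows overlap, and the box at -200 of the inner one is the box at -8 of the outer one. The windows of Anxa5, Anxa4 and Anxa8 held none of the 4 elements. Anxa1, whose window lies inside a longer GENCODE transcript and is not shown, held TEAD at -236 and TATAAA at -32. Over all 32851 RefSeq windows of this length, AP-1 was found in 6.75%, TEAD in 12.6%, the GC box in 32.7% and TATAAA in 7.59%. The windows of Anxa5, Anxa2 and Anxa11 held 58.8%, 62.4% and 58.0% G and C, against a median of 52.4%, while that of Anxa1 held 46.0%.

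Among S100 genes known to bind annexins, S100a10 and S100a6 fell and S100a11 did not pass. S100a10, the partner of annexin A2, stood at 1100 and 1244 units in WT, against 424, 565, 616 and 613 units for KO lines 1 to 4. All 4 lines were below both WT libraries, with a log2 fold change of -1.07 (SE 0.171, adjusted p = 0.0112, limma), called with each library left out. Line 1 was the lowest KO line for both S100a10 and Anxa2. Line 3 was the highest KO line for S100a10 but lay below lines 2 and 4 for Anxa2. S100a6, which binds several annexins, stood at 1536 and 1202 units in WT, against 248, 120, 169 and 62 units for KO lines 1 to 4, a log2 fold change of -3.20 (SE 0.448, adjusted p = 0.00781, limma), also called in each such fit. S100a11, the partner of annexin A1, stood at 1530 and 899 units in WT, against 972, 1022, 1077 and 1044 units for KO lines 1 to 4. Its groups overlapped, and it did not pass (log2 -0.19, adjusted p = 0.529, limma).

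Of the 7 rows named as S100 genes, 3 fell (42.9%, against 7.34% of all genes), 1 rose (14.3%, against 9.75%) and 3 did not pass, with a median log2 change of -0.98. The third that fell was S100a4, a marker of motile and mesenchymal cells, at 146 and 164 units in WT and 10, 2, 6 and 4 units in KO lines 1 to 4 (log2 -3.08, adjusted p = 0.00767, limma). It met the 80-unit level through WT alone. The 1 that rose was S100pbp, which matches by name but encodes an S100-binding protein, at 1020 and 762 units in WT and 1335 to 1536 units in the KO lines (log2 0.70, adjusted p = 0.0186, limma). It passed in 4 of 6 leave-one-out fits (adjusted p reached 0.0663). The annexin-binding genes S100a10, S100a6 and S100a11 lie on chromosome 3, as do S100a4 and Anxa5. That chromosome had a median log2 deviation between -0.04 and 0.04 in the 6 libraries.

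Part of the plasmin system that the annexin A2 and S100A10 complex serves fell in KO. Of the 6 genes of the list reported here, 3 fell (50%, against 7.34% of all genes) and 3 did not pass. None rose at an unadjusted p below 0.05 (limma), where 2241 of all 10989 genes were higher. A list of 6 genes is too short to tell none from that share. Plat, tissue plasminogen activator, stood at 136 and 104 units in WT, against 6, 14, 14 and 12 units for KO lines 1 to 4 (log2 -2.36, adjusted p = 0.0131, limma), and it met the 80-unit level through WT alone. Plaur, the urokinase receptor, stood at 342 and 245 units in WT, against 42, 36, 33 and 80 units for KO lines 1 to 4 (log2 -2.34, adjusted p = 0.00859, limma). Only line 4 of the KO lines reached 80 units, so the presence of Plaur also needed WT. Both were called in each fit with a library left out that tested them, 4 for Plat and 6 for Plaur. S100a10, already described, was the third. The large scaffold gene Ahnak, which binds the annexin A2 complex, stood at 5352 and 2925 units in WT, against 2024 to 2578 units over the 4 KO lines and did not pass (log2 -0.82, adjusted p = 0.0516, limma).

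Of 14 measured genes of calcium-dependent membrane repair, 6 fell (42.9%, against 7.34% of all genes) and 7 did not pass, with a median log2 change of -0.26. The 1 gene called higher is 7.14% of the list, below the 9.75% of all genes. Of the 6 that fell, Cav1 and Dysf met the 80-unit level through WT alone. Cav1, the coat protein of caveolae, stood at 468 and 339 units in WT, against 49, 28, 35 and 28 units for KO lines 1 to 4 (log2 -3.08, adjusted p = 0.00306, limma). Capn2, the catalytic subunit of a calcium-activated protease, stood at 582 and 523 units in WT, against 63, 83, 100 and 178 units for KO lines 1 to 4 (log2 -2.32, adjusted p = 0.00912, limma). Pdcd6, or ALG-2, a calcium sensor that binds annexins A7 and A11, stood at 1003 and 1344 units in WT, against 608 to 678 units over the 4 KO lines (log2 -0.86, adjusted p = 0.0111, limma). These 3 were called with each library left out.

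The ferlins Dysf and Myof are membrane proteins that drive vesicle fusion during repair. Dysf stood at 135 and 122 units in WT, against 33 to 68 units over the 4 KO lines (log2 -1.28, adjusted p = 0.036, limma), a call held in 1 of 6 leave-one-out fits (highest adjusted p 0.104) with log2 changes of -1.44 to -1.17. Myof stood at 3317 and 2984 units in WT, against 2057 to 2382 units over the 4 KO lines (log2 -0.51, adjusted p = 0.0197, limma), held in 4 of 6 (highest adjusted p 0.0741) with log2 changes of -0.58 to -0.43. Chmp4b, a subunit of the ESCRT-III machinery that cuts membranes, had a log2 change of -0.32 (adjusted p = 0.0461, limma) that passed in 0 of the 6 fits, where it lay between -0.34 and -0.30. Capns1, the shared small subunit of calpains, was the 1 called higher, with a log2 change of 0.44 (adjusted p = 0.0486, limma), held in 1 of 6 with log2 changes of 0.23 to 0.65. Myof, Chmp4b, Capns1, Ahnak and the copines Cpne3 and Cpne5 were named after their values were seen. Genes called lower in these lists and the called fibroblast markers were both called for low values in the KO lines. That they are low in the same libraries therefore says nothing about the feeder cells, whose part was not tested.

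**Figure D4:**
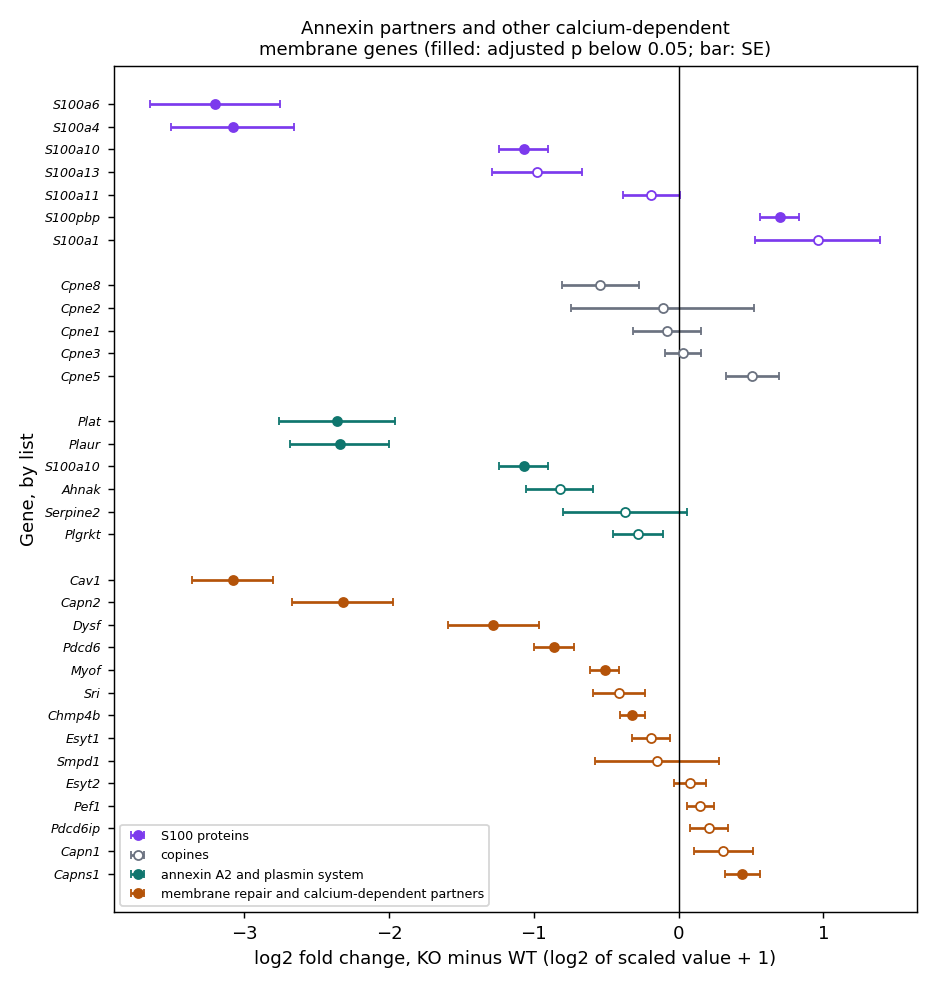
Log2 fold change, KO minus WT, with its standard error for S100 genes, copines, the plasmin system around annexin A2 and other genes of membrane repair. Filled points passed an adjusted p below 0.05. S100a6, S100a4 and Cav1 lie beyond -3 and no copine passed.

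Copines, another family that binds membrane phospholipids when calcium is present, served as a comparison by function. None of the 5 measured copines was called by limma, beside 7.34% of all genes called lower and 9.75% higher. A list of 5 genes is too short to tell none from those shares. Of the copines 1, Cpne5, was higher at an unadjusted p below 0.05 (adjusted p = 0.0984, limma), as were 2241 of all 10989 genes. The median log2 change was -0.08. Cpne3 stood at 814 and 838 units in WT, against 802, 878, 748 and 966 units for KO lines 1 to 4. The difference between the annexin and copine lists was not tested.

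Genes most like a member were sought among 9326 genes by the root-mean-square difference of log2 levels over the 6 libraries, each gene centred on its own mean. For Anxa5, the member with the largest change, the closest were Ddx58 (0.169), Tpm2 (0.179), Angptl2 (0.236), Cav1 (0.274) and Mxra8 (0.292), where the median gene lay at 1.33. Ddx58, the cytosolic RNA sensor RIG-I, stood at 1180 and 851 units in WT, against 200, 123, 128 and 134 units for KO lines 1 to 4. Tpm2, a tropomyosin of actin filaments, stood at 479 and 472 units in WT, against 108, 48, 82 and 81 units for KO lines 1 to 4. For Anxa6, the member with the highest mean level, the closest were Ppp1r15b (0.0317), Traf3ip1 (0.0351), Gprasp1 (0.0563), Fkbp9 (0.0571) and Kank1 (0.0598), against a median of 0.287. None of these 5 passed the test (adjusted p 0.0902 to 0.505, limma). Within the family, Anxa6 and Anxa7 were the closest pair (0.243), and Anxa5 and Anxa11 were the farthest apart (1.40).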

How the data were processed

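RNA sequencing libraries of 2 WT replicates and 4 KO lines were compared. Build mm10 and the tools RSEM 1.2.17 and Bowtie2 2.2.0 are listed, without a role, in the submitters' processing notes. How the values were normalized and on which annotation is not given in the sources used here. Per the file name, the authors' deposited values are CPM, but they are whole numbers with near-equal totals and a shared highest value (78894) in every library, so they are taken here as normalized scores without a fixed unit. Such values hide changes in total RNA, and depth is unknown. Strand use is not stated, so reads of Anxa1, Anxa2, Anxa4, Anxa8 and Anxa11 cannot be told apart from those of the annotated genes that overlap them on the opposite strand.

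Values were divided by 14.7 units (mean library total over 1000000), 1 was added and log2 taken. This understates the change of low genes, while N-fold values are ratios of mean deposited units. The test was planned for CPM, so the scale follows from the totals. All 10989 rows reached a scaled value of 1 in 2 libraries and were fitted with limma 3.58.1 (R 4.3.3; lmFit and eBayes with trend, two-sided), on 6 libraries with no covariate. The procedure was tested on simulated data. Positions and lengths come from GENCODE M21 (mm10), matched for 10941 rows. Named genes were every annexin, Ddx5, S100a10, S100a6 and S100a11, up to 4 called members of each other list with the largest changes, and the 5 genes most like 2 annexins. Pou5f1 and Dppa5a were added later. A gene of the plasmin system list is not reported here and was left out of its counts, for a reason unrelated to its values. Members and lists were chosen with earlier results of these data known. Lists were the annexins, S100 genes, copines, the annexin A2 and plasmin system, membrane repair partners, annexin A1 receptors and markers of feeder fibroblast, embryonic stem cell, primitive endoderm and trophoblast. Of 10 stem cell markers 1 was higher (Nanog, log2 0.89) and 1 lower (Klf4, -0.94), of 3 primitive endoderm markers 1 was lower (Sparc, -0.79), and of 4 trophoblast markers 1 was higher in KO (Tfap2c, 1.25), beside 7.34% of all genes lower and 9.75% higher. Alternatives were pseudocount, filter, scaling, library weights, variance trend, chromosome shift, replicate block and leaving out each library.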

Additional observations from a re-analysis of the deposited data

Results flagged for a closer look

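Of 40 annexin and partner genes examined for a KO line far from the other 3, 1 was flagged, where chance alone flags about 1 in 20. Cpne1 stood at 980 units in KO line 4 and at 730 to 732 units in the other lines.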

How the results depend on the processing

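No annexin changed direction in any of 142 alternative estimates. Of these, 124 kept their side of the threshold and 18 lost a call. The setting without a filter is the same fit as the main one, since all rows passed the filter. Its estimates, counted among the 124, could not move. With library weights 382 genes were called in all, 2 annexins (Anxa5 and Anxa1) lower, no S100 gene higher, 1 gene of the plasmin system lower, and 3 membrane repair genes lower and 0 higher. With 1 library left out, all calls ranged from 472 to 3304, annexins called lower from 2 (without KO line 2 or KO line 3) to 5, S100 genes higher from 0 to 2, and membrane repair genes lower from 3 to 5 and higher from 0 to 1. Fits without a WT library assume that the lone one varies like the KO lines. With a minimum mean scaled value of 10, 1 plasmin system gene was lower. Plat, Plaur, Anxa3 and Anxa8 lay under that minimum and were not tested. The 1 membrane repair gene called higher fell to 0 with a pseudocount of 0.1, trimmed-mean scaling or no trend. Anxa2 was not called without the trend (adjusted p = 0.0518). Under a replicate block, in which the number in the label is a term of the fit, 20 genes were called in all and 0 of the annexin, S100, plasmin system and membrane repair genes in either direction, with log2 changes of -2.70 for Anxa5 (adjusted p = 0.0541), -1.92 for Anxa3, -1.40 for Anxa1 (0.0691), -1.30 for Anxa2 and -0.46 for Anxa7. Only numbers 1 and 2 occur in both groups. KO lines 3 and 4 each take a term of their own in this fit and do not enter its estimates. Few libraries are then left to measure spread. The labels do not say that a number marks anything shared. The differences between libraries 1 and 2 correlated across genes at 0.15 between WT and KO. The causes of these losses were not tested. Depth is unknown, so low values such as those of Anxa3 carry no counting interval.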
